A study of Mus musculus with 6 samples.

Results

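The genes described here belong to the BCL2 family of survival and death genes. There were 10 genes chosen by symbol: the pro-survival genes Bcl2, Bcl2l1 and Mcl1, the effector genes Bax and Bak1, and the BH3-only genes Bid, Bad, Bcl2l11, Bbc3 and Pmaip1. Of these 10, 9 had a probe set annotated to their symbol alone, out of 19937 genes with such a probe set. Bax had none and was not analysed here. Polysome-bound RNA was measured in #483, a clone of T-ALL (acute lymphoblastic leukaemia of the T lineage) from mice of C57BL6 background, with 1 whole-transcript array per sample. The groups were 3 samples given 4EGI-1 at 100 µM over 2 h and 3 samples titled untreated. 4EGI-1 is a small molecule that keeps eIF4E, which holds the mRNA cap, from docking on eIF4G, a step that recruits ribosomes to capped mRNA. The protocol names DMSO as the vehicle while the titles say untreated, so it is not settled what the control cells received. All samples come from 1 clone, so other leukaemias were not sampled. The arrays report how much of an mRNA was on polysomes relative to the other mRNAs of the same sample. A change in total mRNA and a change in its translation therefore cannot be told apart, nor can fewer cells of a type and less RNA per cell.

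The BCL2 family decides whether the outer mitochondrial membrane is opened, which commits a cell to apoptosis. Pro-survival proteins (BCL2, BCL-XL, MCL1) hold the effectors BAX and BAK in check, and BH3-only proteins, which carry only the short BH3 helix, either occupy the groove of the pro-survival proteins or activate the effectors directly. In T-lineage cells BIM, the product of Bcl2l11, is known for removing self-reactive thymocytes, and MCL1 and BCL2 for keeping thymocytes and leukaemic T cells alive. Many family members are set by transcription: FOXO3 is known to activate Bcl2l11 and Bbc3, and p53 to activate Bbc3 and Pmaip1.

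Upstream sequences are shown for the member that rose, for the member that fell most, and for Bbc3, which shares a FOXO word with Bcl2l11. Each is the 250 bases before a RefSeq transcript start (build GRCm38.p6), 5′ to 3′ on the gene's strand, with capitals marking the FOXO core word GTAAACA or its reverse complement TGTTTAC. Bcl2l11 has RefSeq starts at 2 places, shown as chr2:128125788-128126037 and chr2:128127325-128127574 on the plus strand. Bbc3 has RefSeq starts at 3 places, and only the window of the middle start is shown, chosen because it alone holds the word. It is chr7:16310011-16310260 on the plus strand, and the Bid window is chr6:120916825-120917074 on the minus strand.
Bcl2l11 upstream start: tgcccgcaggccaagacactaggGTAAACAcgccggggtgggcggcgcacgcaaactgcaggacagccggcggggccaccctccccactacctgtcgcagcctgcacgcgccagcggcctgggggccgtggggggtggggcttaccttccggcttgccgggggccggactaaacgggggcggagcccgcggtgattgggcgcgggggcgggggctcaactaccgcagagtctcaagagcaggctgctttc
Bcl2l11 downstream start: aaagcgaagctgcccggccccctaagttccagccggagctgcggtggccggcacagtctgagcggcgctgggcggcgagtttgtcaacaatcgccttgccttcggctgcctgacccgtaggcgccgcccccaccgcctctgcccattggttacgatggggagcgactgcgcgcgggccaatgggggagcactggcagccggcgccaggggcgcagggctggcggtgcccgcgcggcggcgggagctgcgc
Bbc3 middle start: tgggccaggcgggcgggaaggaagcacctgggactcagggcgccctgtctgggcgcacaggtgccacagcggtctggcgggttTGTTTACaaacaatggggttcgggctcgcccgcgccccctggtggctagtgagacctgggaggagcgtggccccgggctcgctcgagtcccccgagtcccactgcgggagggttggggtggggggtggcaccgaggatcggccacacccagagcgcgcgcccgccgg
Bid: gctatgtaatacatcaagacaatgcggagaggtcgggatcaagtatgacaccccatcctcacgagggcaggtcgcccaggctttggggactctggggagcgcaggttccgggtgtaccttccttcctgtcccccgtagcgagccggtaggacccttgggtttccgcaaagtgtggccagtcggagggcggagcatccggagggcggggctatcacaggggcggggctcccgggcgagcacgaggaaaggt
Of the 10 genes, 9 had entries in the RefSeq promoter table, with 15 windows in all. The FOXO word was found in 2 of these 15 windows, 1 of Bcl2l11 and 1 of Bbc3, and in 3.17% of all 32851 windows of the same length. A palindromic E-box (CACGTG) was found in windows of Bax and Bbc3, against 6.02% of all windows. The C/EBP-ATF composite word TGATGNAA, the CRE TGACGTCA and TATAAA were found in 0 of the 15 windows, against 3.45%, 1.55% and 12.4% of all windows. CCAAT was found in 4 of the 15 windows, of Bad, Bbc3 and Bcl2l11, against 33.8% of all windows. All words were searched on both strands, and a match or its absence is a description of these letters only. The windows ranged from 47.6% to 81.6% G+C, and 13 of 15 lay above the median of all windows, 52.4%.

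After 4EGI-1, Bcl2l11 was more abundant on polysomes and Bid, Bak1 and Bad were less abundant, while Bcl2, Bcl2l1, Mcl1, Bbc3 and Pmaip1 did not pass the test. Thus 1 of the 9 measured genes rose and 3 fell at an adjusted p under 0.05 in limma's moderated test over all genes. Over all 19937 genes, 11.5% passed as higher and 11.5% as lower, 22.9% together. These shares, here and below, include weak genes. With genes under the table's median (that of the mean signals of all probe sets) left out, 5143 of 11059 genes passed, 2339 higher and 2804 lower. Of the 7 members left by that filter 4 passed, 1 higher and 3 lower. The 4 genes that passed are also the 4 whose groups did not overlap, where 37.9% of all genes did not overlap, 17.0% with 4EGI-1 higher and 20.8% with 4EGI-1 lower. The median log2 difference (4EGI-1 minus untreated) of the 9 genes was -0.13, beside -0.03 over all genes. By role, 0 of 3 pro-survival genes passed (median -0.08), the 1 measured effector fell, and of 5 BH3-only genes 1 rose, 2 fell and 2 did not pass (median -0.13).

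**Figure D1:**
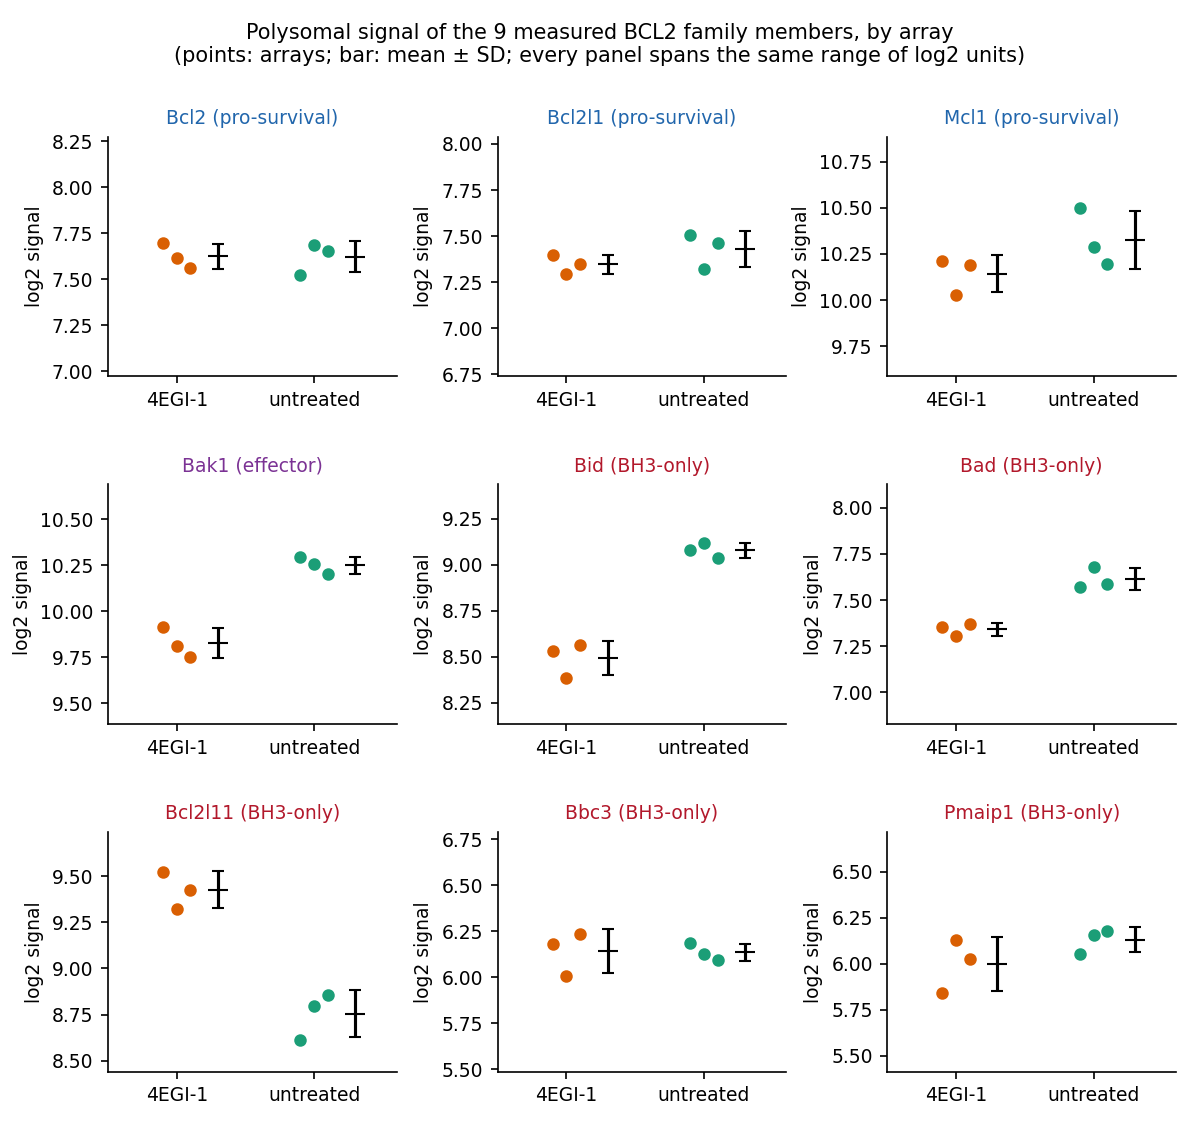
Log2 signal of the 9 measured genes on each array, with 4EGI-1 on the left and untreated on the right of each panel; points are arrays and the bars are mean ± SD (n = 3). The groups separate for Bcl2l11 (4EGI-1 higher) and for Bid, Bak1 and Bad (4EGI-1 lower) and overlap for the other 5.

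Among the pro-survival genes, Bcl2, which encodes the founding member of the family, had log2 signals of 7.70, 7.62 and 7.56 with 4EGI-1, against 7.53, 7.69 and 7.65 in untreated samples. The groups overlapped, and the difference was 0.00 with a 95% interval of -0.16 to 0.16 (limma, adjusted p = 0.986). Bcl2l1 encodes BCL-XL. A single probe set carried its symbol, and which splice forms that probe set reads was not checked. Bcl2l1 had signals of 7.40, 7.29 and 7.35 with 4EGI-1, against 7.51, 7.32 and 7.47 in untreated samples. Its groups overlapped, with a difference of -0.08 and an interval of -0.25 to 0.08 (limma, adjusted p = 0.475). Leaving out 1 array moved it, to -0.047 without untreated replicate 1 and to -0.14 without untreated replicate 2. Cox4i2, which overlaps Bcl2l1 in RefSeq, differed by -0.03 on its own probe set.

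Mcl1 encodes a short-lived survival protein that must be made continuously. Its signals were 10.21, 10.03 and 10.19 with 4EGI-1, against 10.50, 10.29 and 10.19 in untreated samples. The third untreated sample lay within the range of the treated ones, and the first untreated sample stood above the other 5 arrays. The difference of -0.18 had an interval of -0.40 to 0.03 (limma, adjusted p = 0.222) and thus reached from a decrease of 0.40 to a small increase. Without untreated replicate 1 the difference was -0.096.

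Bak1 encodes BAK, an effector that forms pores in the outer mitochondrial membrane. It had log2 signals of 9.91, 9.81 and 9.75 with 4EGI-1, against 10.29, 10.25 and 10.20 in untreated samples. All 3 treated samples lay below all 3 untreated ones. Bak1 averaged 9.83 ± 0.08 with 4EGI-1 and 10.25 ± 0.05 in untreated samples (SD, n = 3 each), a log2 difference of -0.42 ± 0.07 (SE; limma, adjusted p = 0.00265), or 0.746 times the untreated level. In RefSeq the gene overlaps Ggnbp1, which had no probe set of its own symbol alone.

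Bcl2l11 encodes BIM, a BH3-only protein that binds all pro-survival members and can activate BAX and BAK. Its log2 signals were 9.53, 9.32 and 9.43 with 4EGI-1, against 8.61, 8.80 and 8.86 in untreated samples. Every treated sample was above every untreated one, and the gap between the groups was wider than the range within either. Bcl2l11 averaged 9.43 ± 0.10 with 4EGI-1 and 8.76 ± 0.13 in untreated samples (SD, n = 3 each). The log2 difference of 0.67 ± 0.09 (SE; limma, adjusted p = 0.000933) corresponds to 1.59-fold, and its 95% interval was 0.47 to 0.87. It ranked 551 among the increases of all 19937 genes. The probe set does not separate the splice forms of BIM. Acoxl, which overlaps Bcl2l11 in RefSeq, differed by -0.09 ± 0.08 (SE; limma, adjusted p = 0.485) on its own probe set.

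Bid encodes a BH3-only protein that caspase 8 cleaves into its active form, which links death receptors to mitochondria. It had log2 signals of 8.53, 8.39 and 8.57 with 4EGI-1, against 9.08, 9.12 and 9.04 in untreated samples. The treated samples lay below the untreated ones without overlap. The mean was 8.49 ± 0.09 with 4EGI-1 and 9.08 ± 0.04 in untreated samples (SD, n = 3 each), a difference of -0.58 ± 0.07 (SE; limma, adjusted p = 0.000649), or 0.668 times the untreated level. In RefSeq a pseudogene, Gm17812, overlaps Bid. This was the strongest decrease of the 9 genes and ranked 321 among the decreases of all genes.

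Bad encodes a BH3-only protein that phosphorylation by AKT holds in the cytosol, bound to 14-3-3 proteins. Its signals were 7.35, 7.30 and 7.37 with 4EGI-1, against 7.57, 7.68 and 7.59 in untreated samples. The groups did not overlap, but the gap was small: the difference was -0.27 ± 0.06 (SE; limma, adjusted p = 0.0142), or 0.828 times the untreated level. Without untreated replicate 2 the difference was -0.24 and the adjusted p 0.0532. Gpr137, which overlaps Bad in RefSeq, differed by -0.02 ± 0.09 (SE; limma, adjusted p = 0.916).

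Bbc3 and Pmaip1 encode PUMA and NOXA, BH3-only proteins best known as p53 targets. Their signals were low, at percentiles 38.2 and 36.5 of the mean signals of all genes, and detection calls were not used here, so a change in a weakly detected mRNA could be missed. Bbc3 had signals of 6.18, 6.01 and 6.23 with 4EGI-1, against 6.18, 6.13 and 6.09 in untreated samples. Its difference was 0.01 with an interval of -0.17 to 0.18 (limma, adjusted p = 0.968). Of the Bbc3 windows, only that of the middle start, printed above, holds the FOXO word. Of the Bcl2l11 windows, only that of the upstream start has it. Pmaip1 had signals of 5.84, 6.13 and 6.03 with 4EGI-1, against 6.05, 6.16 and 6.18 in untreated samples. The groups overlapped, with a difference of -0.13 and an interval of -0.33 to 0.06 (limma, adjusted p = 0.340), and -0.053 without 4EGI-1 replicate 1. The other 7 genes lay between percentiles 62.0 and 90.04 of mean signal.

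**Figure D2:**
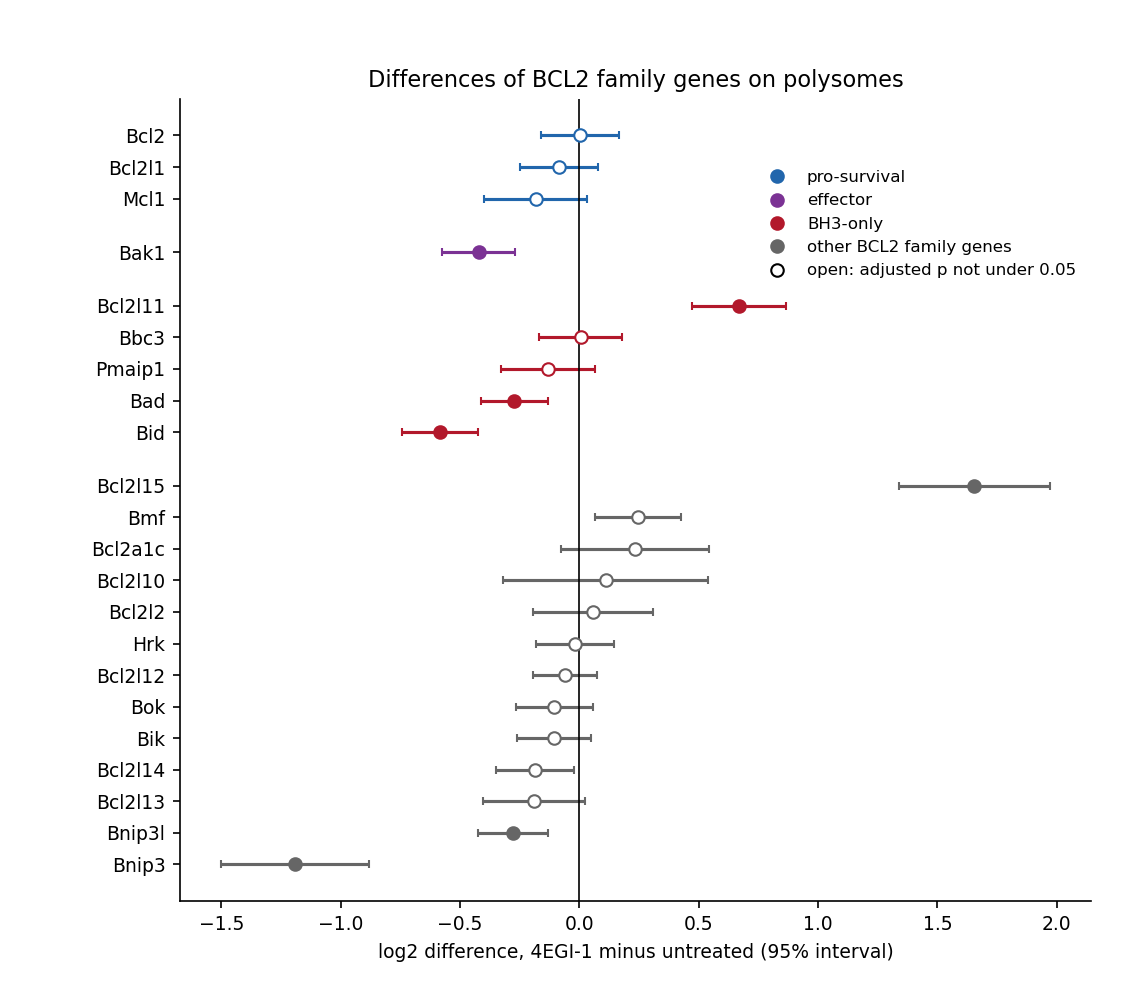
Log2 differences (4EGI-1 minus untreated) with 95% intervals for the 9 measured genes by role and for 13 other family genes; filled points passed at an adjusted p under 0.05. Bcl2l11 at 0.67 and Bcl2l15 at 1.66 are the filled points to the right of 0, and Bid, Bak1, Bad, Bnip3 and Bnip3l those to the left.

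**Figure D3:**
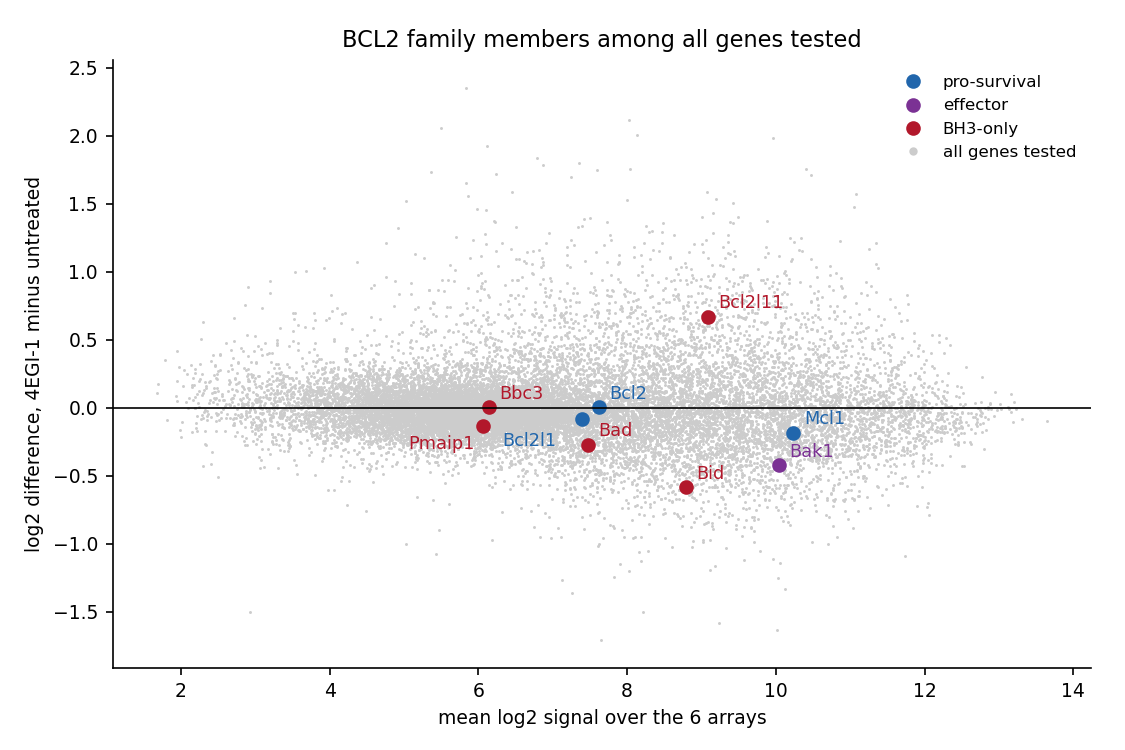
Log2 difference (4EGI-1 minus untreated) against the mean log2 signal of the 6 arrays for all 19937 genes (grey) and the 9 measured family genes (coloured by role). Bcl2l11 at 0.67, Bid at -0.58 and Bak1 at -0.42 lie outside the range from -0.39 to 0.49 that holds the middle 90% of all genes.

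Of 16 other family genes listed, 13 were measured: 1 rose, 2 fell and 10 did not pass, where 11.5% of all genes rose and 11.5% fell. The median difference of these 13 was -0.06 (all genes -0.03). The rise was in Bcl2l15, which encodes BFK, a weakly pro-apoptotic relative. Its log2 signals were 6.78, 6.85 and 6.36 with 4EGI-1, against 4.83, 5.07 and 5.14 in untreated samples. The groups did not overlap, and the difference of 1.66 ± 0.14 (SE; limma, adjusted p = 0.000136) passed the test. The untreated mean of 5.01 lay below 5.21, the 25th percentile of the mean signals of all probe sets. For this reason, and because detection calls were not used here, no fold is given.

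Bnip3 and its relative Bnip3l encode mitophagy receptors with a BH3-like stretch. Bnip3 had log2 signals of 8.69, 8.23 and 8.62 with 4EGI-1, against 9.65, 9.90 and 9.55 in untreated samples, a difference of -1.19 ± 0.13 (SE; limma, adjusted p = 0.000535). A second Bnip3 probe set gave -0.90, so the size of the decrease is uncertain. RefSeq places a pseudogene, Gm18258, over the gene, and where each of the probe sets maps was not checked. Bnip3l had signals of 11.37, 11.31 and 11.33 with 4EGI-1, against 11.62, 11.69 and 11.54 in untreated samples. Its difference was -0.28 ± 0.06 (SE; limma, adjusted p = 0.0149), with -0.34 on its second probe set. Without untreated replicate 2 the Bnip3l difference was -0.24 and the adjusted p 0.0554. Bmf, a BH3-only gene related to Bcl2l11 and named after its values were seen, did not pass but was close: its groups did not overlap, and the difference was 0.25 ± 0.08 (SE; limma, adjusted p = 0.0570). The pro-survival gene Bcl2l2 and the remaining BH3-only and effector-like genes Bik, Hrk and Bok differed by 0.06, -0.11, -0.02 and -0.10 without passing. Bcl2a1a, Bcl2a1b and Bcl2a1d share probe sets with each other and were not measured alone.

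Of 12 transcription factors listed for their known action on family genes, 11 were measured: 3 rose, 0 fell and 8 missed the threshold (median 0.16), where 11.5% of all genes rose and 11.5% fell (median -0.03). Jun, an AP-1 subunit, rose by 1.36 ± 0.13 (SE; adjusted p = 0.000253) and Ddit3, which encodes CHOP, by 0.86 ± 0.07 (SE; adjusted p = 0.000115) in limma's fit. Each is known to raise Bcl2l11 transcription in some cells; Ddit3 overlaps Mars1 in RefSeq. Tsc22d3, which encodes the glucocorticoid-induced protein GILZ, rose by 0.40 ± 0.10 (SE; limma, adjusted p = 0.0239), a call lost without 4EGI-1 replicate 3 (0.0605), untreated replicate 1 (0.0891) or untreated replicate 3 (0.0732). The FOXO genes of the list, named after their values were seen, did not pass. Foxo3 differed by 0.16 (limma, adjusted p = 0.0897), Foxo1 by -0.24 (0.0526) and Foxo4 by -0.10 (0.434). FOXO proteins are controlled mainly by phosphorylation, which these arrays do not read. Trp53 had no probe set of its symbol alone and was not analysed here.

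Among 23 ligases, kinases and binding partners of family proteins, 21 were measured: 2 rose, 8 fell and 11 did not pass (median -0.21), where 11.5% of all genes rose and 11.5% fell (median -0.03). Of the 21, 20 lay above the median signal of all genes. Of the 11059 genes left by the filter at the table's median, 2339 rose and 2804 fell. These come from a separate fit, for which this list was not recounted. Ppp3ca, a catalytic subunit of the phosphatase calcineurin, which can release BAD from 14-3-3 proteins, fell by 0.80 on the log2 scale (limma, adjusted p = 0.000193). The kinase gene Akt1 fell by 0.56. Of the 6 measured 14-3-3 genes 2 fell and 4 did not pass, each read from its brightest probe set. Ywhag fell by 0.57 and Ywhab, named after its values were seen, by 0.25. Ywhah, also named after its values were seen, did not pass on its brighter probe set (-0.17; limma, adjusted p = 0.131). Its second probe set gave -0.30 in a limma test over all probe sets (adjusted p = 0.00840). The call of Ywhab was lost without 4EGI-1 replicate 1 (limma, adjusted p = 0.0562), 4EGI-1 replicate 2 (0.0508) or untreated replicate 1 (0.0611). Usp9x encodes a deubiquitinase that stabilises MCL1, and it rose by 0.53 ± 0.06 (SE; limma, adjusted p = 0.000460). The ligase genes of the list, named after their values were seen, went different ways. Huwe1 rose by 0.35 (limma, adjusted p = 0.00339). Fbxw7 fell by 0.38 (limma, adjusted p = 0.00257), with -0.63 on its second probe set, and Btrc did not pass. MCL1 protein was not measured.

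Among 18 genes for mitochondrial partners and the apoptosome, 15 were measured: 2 rose, 2 fell and 11 did not pass (median -0.12), shares that lie near the 11.5% higher and 11.5% lower of all genes (median -0.03). All 15 lay above the median signal of all genes. With the same filter, 2339 of 11059 genes rose and 2804 fell. In that separate fit Cycs (limma, adjusted p = 0.0252) and Apaf1 (0.0388) also passed as lower, and the list as a whole was not recounted. Itpr2 and Itpr3 encode calcium channels of the endoplasmic reticulum that BCL2 can bind, and rose by 0.87 ± 0.07 and 0.47 ± 0.08 (SE). Mtch2, the mitochondrial receptor of cleaved BID, fell by 0.30, with -0.21 on its second probe set. Diablo, which encodes SMAC, which frees caspases from their inhibitors, fell by 0.40. Cycs, which encodes cytochrome c and was named after its values were seen, differed by -0.17 (limma, adjusted p = 0.0792) on its brightest probe set. Another Cycs probe set gave -0.24 in a limma test over all probe sets (adjusted p = 0.0174). A further, weak one gave -0.0008, with a mean of 6.13 in each group. Apaf1, the apoptosome scaffold, also named after its values were seen, differed by -0.15 (limma, adjusted p = 0.109).

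**Figure D4:**
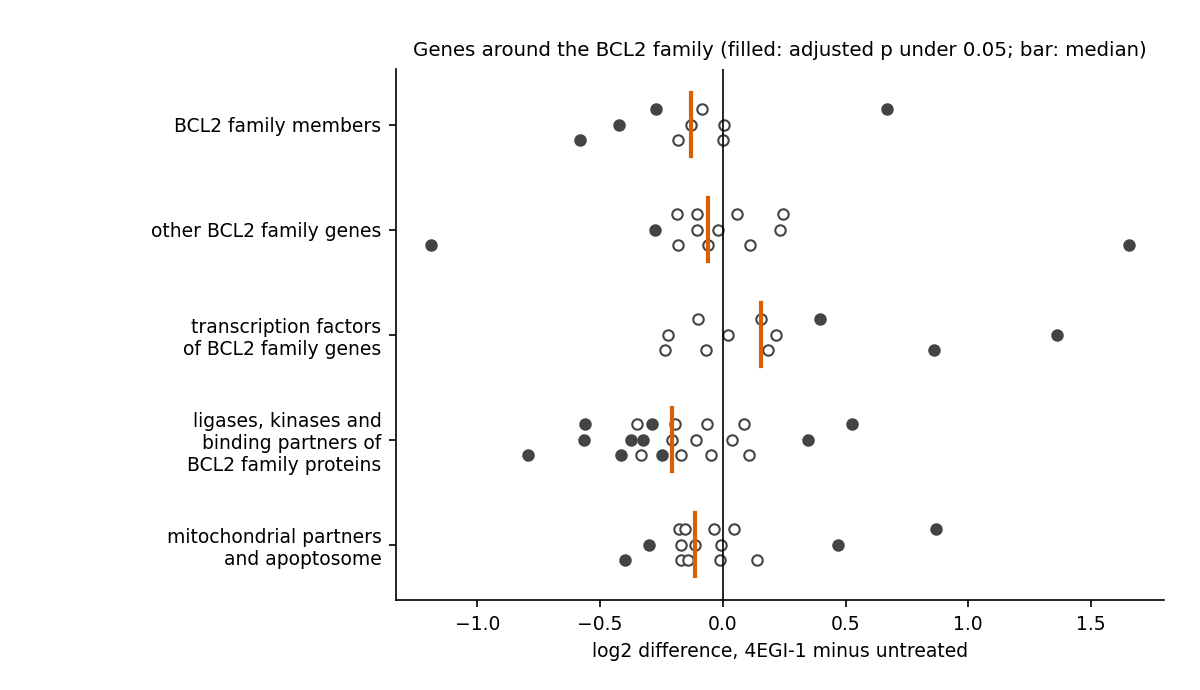
Log2 differences (4EGI-1 minus untreated) of the measured genes of the BCL2 family and of 4 lists around it; each point is a gene, filled where it passed at an adjusted p under 0.05, and the bar is the list's median. Medians run from -0.21 for the ligases, kinases and binding partners to 0.16 for the transcription factors.

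The array medians were 6.38 to 6.43 log2 units, arrays of a group correlated at 0.996 to 0.997 across genes, and arrays of different groups at 0.988 to 0.990. T-cell markers were present: all 11 measured of 12 listed lay above the median signal of all genes, with group means from 6.80 to 12.28 with 4EGI-1 and from 6.90 to 12.47 in untreated samples. Of these 11, 6 fell, as Bid, Bak1 and Bad did, 0 rose and 5 did not pass (median -0.26), where 11.5% of all genes fell (median -0.03). With genes under the table's median left out, 2804 of 11059 genes fell, in a separate fit for which the markers were not recounted. The 5 T-cell markers that did not pass were Cd3g, Cd247, Cd5, Thy1 and Lat. Of 5 measured B-cell markers Blnk rose by 0.99 and of 6 myeloid markers Cd68 by 0.31, while 0 of the other measured markers of B, myeloid, erythroid and stromal or endothelial cells passed. The B-cell means ranged from 4.44 to 7.23 with 4EGI-1 and from 4.33 to 6.73 in untreated samples, and the myeloid means from 4.95 to 6.83 with 4EGI-1 and from 5.03 to 6.78 in untreated samples. The erythroid means ranged from 6.06 to 6.94 with 4EGI-1 and from 6.14 to 7.13 in untreated samples, and the stromal and endothelial means from 5.25 to 8.87 with 4EGI-1 and from 5.37 to 8.995 in untreated samples. The part of these markers in the differences above was not tested.

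**Figure D5:**
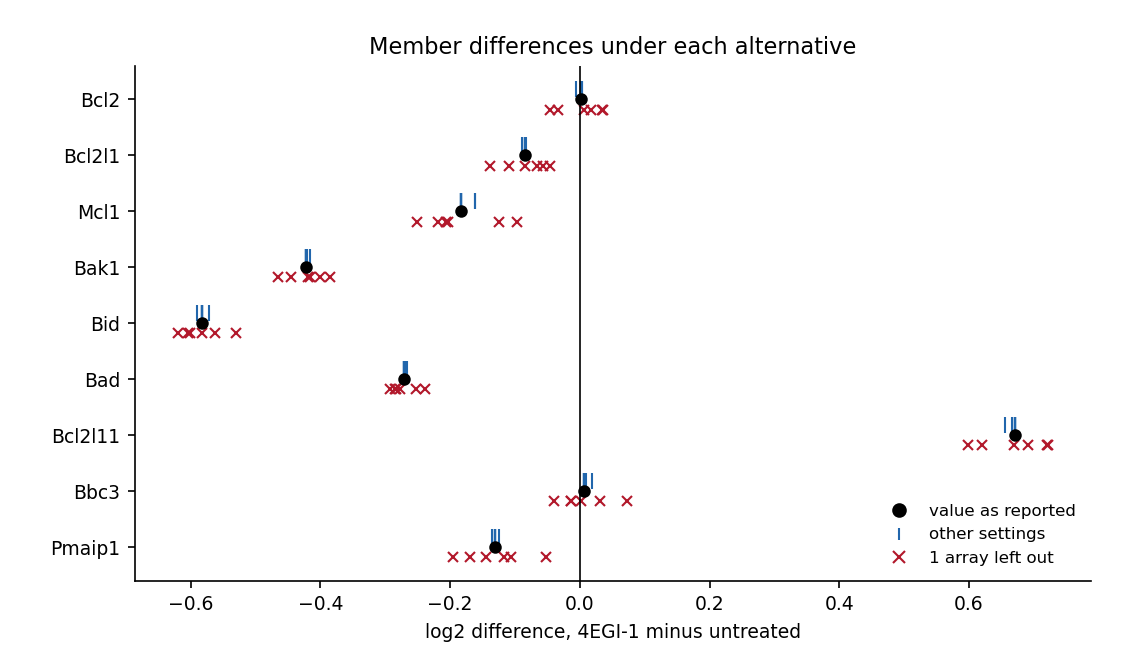
Log2 differences (4EGI-1 minus untreated) of the 9 measured genes as reported (dots), under other processing settings (blue ticks) and with 1 array left out (red crosses). Bcl2l11 stayed between 0.60 and 0.72, Bid between -0.62 and -0.53 and Bak1 between -0.47 and -0.39, while Bcl2 and Bbc3 lay on either side of 0.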

How the data were processed

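Polysomal RNA of 6 samples was amplified, biotin-labelled and hybridised to 1 array each, per the labels' protocols. The authors deposited a table of log2 signals, 1 for each probe set on each array. Per the submitters' processing notes it was made by RMA, whose version and settings the sources used here do not state. RMA equalises arrays, so a value is relative within its array. Of 34760 probe sets, 22961 are listed by the platform annotation, 21640 of them with 1 symbol and 1321 with several symbols, which named no gene. Symbols were updated by Entrez identifier (21553 matched) through a RefSeq table of GRCm38.p6, and each symbol was read from its brightest probe set on average (19937 genes). Where each probe set maps was not checked, so a brightest probe set may lie away from its gene.

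Differences (4EGI-1 minus untreated) came from limma 3.58.1 (lmFit, then eBayes) under R 4.3.3, two-sided, with p-values adjusted by Benjamini-Hochberg over all genes and called under 0.05. Standard errors (SE) are moderated, on 8.15 degrees of freedom. The design text calls the samples biological replicates, and 3 arrays per group limit the precision. The members and lists were chosen with earlier results of these data known. Genes named besides the 10 chosen ones were those passing among other family genes and up to 4 passing genes with the smallest adjusted p in each of 3 further lists; others are said to be chosen later. Marker genes were named by whether they passed. The fit was tested on simulated data. Alternatives were a replicate block, 2 filters on low signal, a test over all probe sets, averaging a symbol's probe sets, quantile normalization, median centring, array weights, a robust prior with a trend, a stricter threshold of 0.01 and omission of each array in turn.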

Additional observations from a re-analysis of the deposited data

How the results depend on the processing

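Under the 16 alternatives, 1 of the 9 measured members was higher in each, and 2 or 3 were lower. Bcl2l11, Bid and Bak1 passed in all 16; Bad passed in 14, losing its call without untreated replicate 2 (adjusted p = 0.0532) and at an adjusted p under 0.01. The same 2 settings ended the call of Bnip3l. Over all genes, 2736 passed at an adjusted p under 0.01, 1488 higher and 1248 lower, against 4573, 2286 and 2287 as reported. With the replicate number as a block, 4071 genes passed, 4 of them members. In that limma fit the adjusted p was 0.00601 for Bcl2l11, 0.00479 for Bid, 0.00701 for Bak1 and 0.0391 for Bad. The block changed no call among the members and the other family genes. Nor did it among the genes named from the 3 lists around them, leaving aside Foxo4, Huwe1, Fbxw7, Btrc and Ywhah, which were not compared. The labels do not say that a number pairs samples, so the numbers were not read as pairs. Same-numbered samples deviated from their group means with correlations of 0.06, 0.11 and -0.02. Samples of unlike number gave -0.11 to 0.06, and so few values cannot settle whether the numbers mark pairs. Bmf passed in 6, and its adjusted p ranged from 0.0151 (filter at the table's median) to 0.170. Foxo1 passed in 5 (adjusted p 0.0138 to 0.146 over the 16) and Foxo3 in 2 (0.0301 to 0.195). Bcl2l14 passed in 1, the filter at the table's median (adjusted p = 0.0374), and Tsc22d3 in 12. Cycs passed in 2 (adjusted p = 0.0252 with the filter at the table's median and 0.00220 with the robust prior) and Apaf1 in 1 (0.0388, the same filter). Values near 0 changed sign without passing when 1 array was left out: Bbc3 ranged from -0.040 to 0.072, Bcl2 from -0.045 to 0.035, Bcl2l10 from -0.11 to 0.23, Bcl2l2 from -0.012 to 0.18 and Hrk from -0.068 to 0.041. Bcl2 was -0.0058 with array weights. The cause of these changes was not tested. Bbc3 and Pmaip1 lay below the table's median and have no value with that filter. Signal over background was not available, which limits what can be said of the weakest genes.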
